A study of Mus musculus with 9 samples.

Results

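Regulators of G protein signalling (RGS proteins) shorten the signal of G protein-coupled receptors. A receptor that binds its ligand loads the alpha subunit of a heterotrimeric G protein with GTP, and the RGS domain speeds the hydrolysis of that GTP, so that the alpha subunit returns to its inactive form and rejoins the beta and gamma subunits. In macrophages and other leukocytes, receptors of this kind sense chemokines, formyl peptides, complement fragments and nucleotides, and RGS proteins set how long and how strongly the cells respond. The 9 RGS genes described here were Rgs1, Rgs2, Rgs3, Rgs16 and Rgs18 of the R4 subfamily, most of which are small proteins with little beside the RGS domain, Rgs10, Rgs12 and Rgs14 of the R12 subfamily, and Rgs19 of the RZ subfamily. They were found by gene name among the 28379 genes of the deposited table. Rgs1 was chosen from the measured values, since it was among the genes most raised by the vitamins, so its own levels are given as a description with no test. The other 8 genes are compared with it as its relatives.

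RNA was sequenced from primary bone marrow-derived macrophages (BMDMs) of C57BL/6 mice (C57BL/6J in the study's methods), the precursors that RANKL turns into osteoclasts, to ask how vitamins D and K act together on that differentiation. All 3 groups were cultured for 48 h with macrophage colony-stimulating factor (M-CSF) at 20 ng/ml, and each had 3 libraries. In the PBS group, PBS took the place of RANKL. RANKL was added at 100 ng/ml to the cultures of the other 6 libraries. It was given alone in 3 of these, the RANKL group, and in the last 3, the RANKL + Vit D + K group, it was combined with vitamin D at 1000 nM and vitamin K at 20 µM, the doses given in the labels. The study's methods give a higher dose of vitamin K than the labels do. The replicates are numbered, but whether they came from separate mice or cultures was not given in the sources used here beyond a mention of pooled RNA, so the p-values measure the spread between these libraries, which may be technical.

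The libraries held between 65915112 and 68229647 counts. A floor of 3 counts was at most 4.55e-06% of a library, and such limits cover counting error only. Macrophage markers were abundant in every group, with a summed FPKM (a level corrected for gene length and depth) over 6 genes of 2168 to 2289 with PBS, 1654 to 2008 with RANKL and 1336 to 1379 with the vitamins. With the vitamins, 3 of the 6 were called lower and 1 higher than with RANKL, where 17.2% of all genes were lower and 16.4% higher. The summed FPKM of 8 osteoclast markers was 22.9 to 30.3 with PBS, 484.9 to 1012 with RANKL and 58.2 to 93.0 with the vitamins. Cyp24a1, the vitamin D 24-hydroxylase that vitamin D induces, was listed at 0 in the RANKL libraries and had an FPKM of 0.147, 0.41 and 0.24 in the vitamin libraries. Replicate 2 of the vitamin group stood farthest from its group, with a mean absolute deviation of 0.761 on the log2 scale from the other 2 libraries, followed by its replicate 1 at 0.626, where the PBS and RANKL libraries lay between 0.392 and 0.513. Where leaving it out changed the call of a relative against RANKL or moved its value there by over 1.5 times, the value without it is given too.

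Of the 9 genes, 4 lie on chromosome 1, and Rgs1, Rgs2 and Rgs18 form a cluster there on the minus strand. In the coordinates of the table, which are those of GRCm38, Rgs2 (ENSMUSG00000026360) spans chr1:143999338-144004161, Rgs1 (ENSMUSG00000026358) spans chr1:144242296-144249242 and Rgs18 (ENSMUSG00000026357) spans chr1:144752683-144775435. Rgs1 is thus 238 kb from Rgs2, with 2 annotated genes between them, one of which is Rgs13, and 503 kb from Rgs18, with 3 between them, one of which is Rgs21. Rgs16 (ENSMUSG00000026475) spans chr1:153740349-153745468 on the plus strand, 8965 kb beyond Rgs18. The others are Rgs19 (ENSMUSG00000002458) at chr2:181688419-181693977 on the minus strand, Rgs3 (ENSMUSG00000059810) at chr4:62559847-62703018 on the plus strand, Rgs12 (ENSMUSG00000029101) at chr5:34949445-35039636 on the plus strand, Rgs10 (ENSMUSG00000030844) at chr7:128373621-128418758 on the minus strand and Rgs14 (ENSMUSG00000052087) at chr13:55369732-55384687 on the plus strand. Rgs3, Rgs10, Rgs12 and Rgs16 overlap other annotated genes, and since the strand used in counting was not stated, their counts may hold reads of those neighbours.

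The promoters of Rgs2, Rgs10 and Rgs12 are shown, since these were the relatives called in a comparison with the vitamin group. Rgs12 was higher and Rgs10 lower against both other groups, and Rgs2 was lower against PBS only. The table of RefSeq promoters used here (GRCm38.p6) gave 10 start sites for 6 of the 9 genes, and windows of Rgs1, Rgs14 and Rgs18 were not analysed here. The 250 bases before each start are printed from 5′ to 3′ on the strand of the gene, in lower case, with motif matches in capitals. Rgs2 is shown from chr1:144004150-144004399 on the minus strand, Rgs10 from chr7:128418173-128418422 on the minus strand, and Rgs12 from chr5:34998828-34999077 on the plus strand, the window of its internal start.
Rgs2: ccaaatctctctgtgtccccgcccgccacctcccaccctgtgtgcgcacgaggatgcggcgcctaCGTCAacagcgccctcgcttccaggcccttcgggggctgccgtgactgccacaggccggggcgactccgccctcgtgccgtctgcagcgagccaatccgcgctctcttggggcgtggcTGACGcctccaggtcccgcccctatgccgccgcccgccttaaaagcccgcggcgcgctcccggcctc
Rgs10: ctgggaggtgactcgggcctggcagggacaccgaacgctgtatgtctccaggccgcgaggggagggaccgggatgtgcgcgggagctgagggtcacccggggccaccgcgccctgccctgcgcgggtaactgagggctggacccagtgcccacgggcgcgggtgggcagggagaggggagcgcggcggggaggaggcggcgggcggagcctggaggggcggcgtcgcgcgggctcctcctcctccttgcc
Rgs12: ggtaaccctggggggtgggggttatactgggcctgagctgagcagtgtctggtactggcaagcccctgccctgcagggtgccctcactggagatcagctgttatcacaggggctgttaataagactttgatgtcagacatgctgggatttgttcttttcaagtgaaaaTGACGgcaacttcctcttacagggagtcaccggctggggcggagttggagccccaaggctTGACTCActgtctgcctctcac
The capitals in Rgs2 mark the core of the cyclic AMP response element (TGACG, or CGTCA on the other strand) from -185 to -181 and from -67 to -63, counted from the start site. The capitals in Rgs12 mark the same core from -82 to -78 and an AP-1 element (TGANTCA) from -22 to -16. In Rgs10 no searched motif matched. Over 32851 windows of the same length, searched on both strands, the core was in 17.8% and the AP-1 element in 6.75%. The full cyclic AMP response element (TGACGTCA, which contains the core) was in 1.55% of the windows and the nuclear receptor half-site AGGTCA in 14%. The ATF4 composite element TTGCATCA was in 0.791% and the NFAT core TGGAAA in 18.6%. None of these 4 was in any of the 10 member windows, and pairs of half-sites were not searched. The NF-kB element GGGANTTCC, in 1.43% of all windows, was in a pair of overlapping windows of Rgs19, and the TATA box TATAAA, in 12.4%, was in a pair of windows of Rgs3. The windows of Rgs2 and Rgs10 held 72.4% and 76.4% G and C, against 55.6% in this window of Rgs12, 68.4% in its other window (chr5:34949198-34949447, where no searched motif matched) and a median of 52.4% over all windows. A match is a description of the letters and not a site of binding.

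Rgs1 was low in the PBS and RANKL libraries and high with the vitamins. Its protein acts on the alpha subunits of Gi and Gq and is best known for restraining the movement of B and T cells toward chemokines. Its counts were 322, 547 and 337 with PBS, 297, 352 and 172 with RANKL, and 57597, 9995 and 36976 with the vitamins. The PBS and RANKL libraries overlapped, though in each same-numbered pair the RANKL library was below the PBS library. Every vitamin library lay above them all, with replicate 2 the lowest of the 3. In FPKM, which corrects for gene length, the level was 0.769 ± 0.235 (SD, n = 3) with PBS, 0.518 ± 0.184 with RANKL and 67.0 ± 46.3 in the vitamin group, so the mean was 129 times that of the RANKL group and 87.1 times that of the PBS group. The fitted log2 fold change was 7.22 against RANKL and 6.52 against PBS, and -0.70 between RANKL and PBS. The last of these was -0.39 without PBS replicate 2, -0.46 without RANKL replicate 3 and -0.22 by limma on log2(FPKM + 1). Without vitamin replicate 2 the value against RANKL was 7.68, and without vitamin replicate 1 it was 6.58. By log2 fold change against RANKL, Rgs1 ranked 21 of the 17002 genes tested, while the relatives ranked from 894 (Rgs12) to 13647 (Rgs3). By FPKM within a library, it ranked 345, 2430 and 514 in the vitamin libraries and between 10968 and 13749 in the others.

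**Figure D1:**
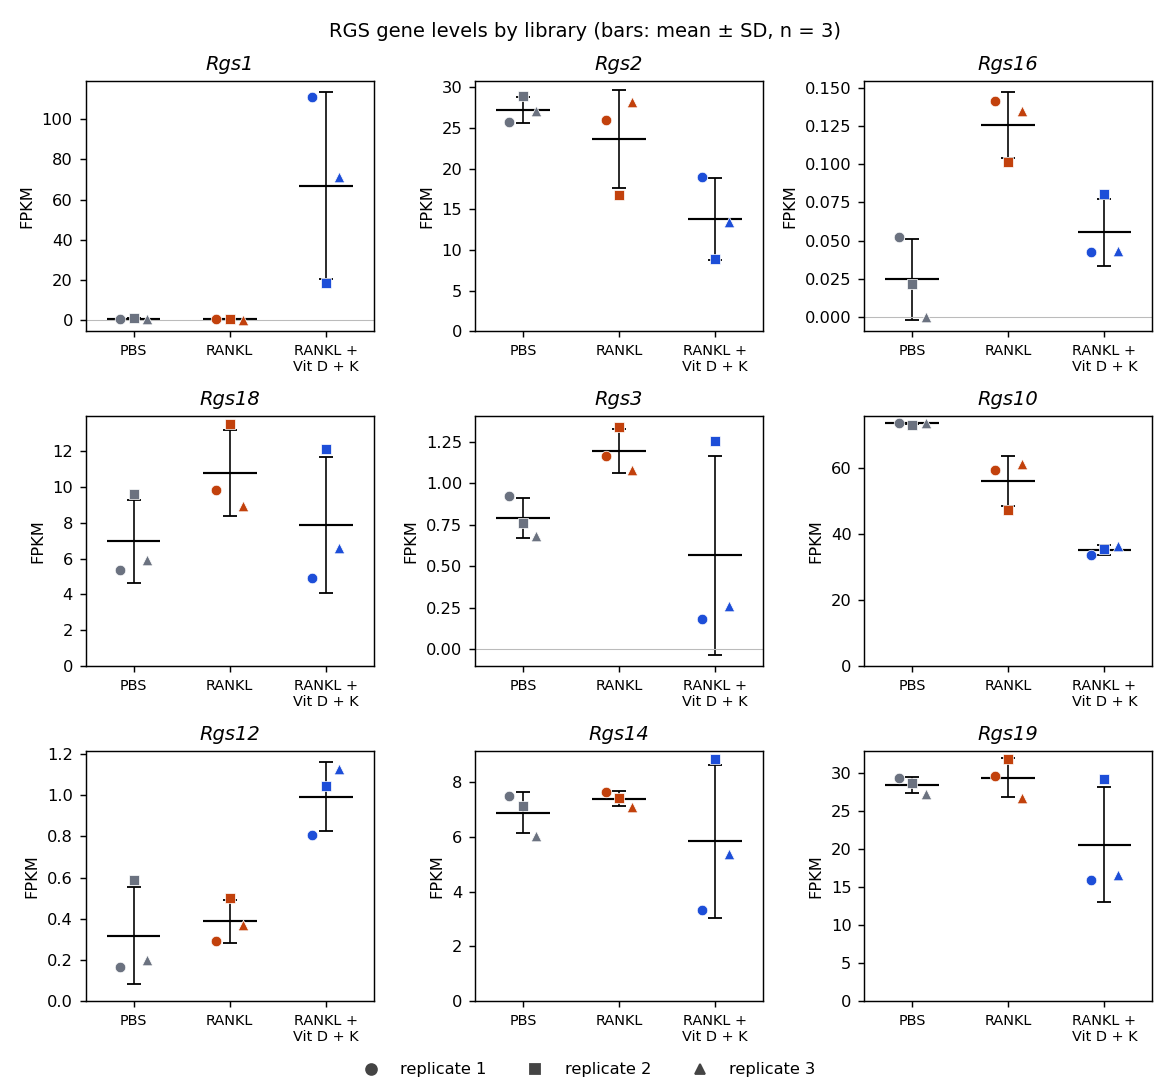
FPKM of the 9 RGS genes in each library, with 1 panel per gene on its own linear axis. Points are libraries (circle, square and triangle for replicates 1, 2 and 3), horizontal lines are group means and whiskers are ± SD (n = 3). Rgs1 and Rgs12 sit highest in the RANKL + Vit D + K group, Rgs10 and Rgs2 sit highest on average in the PBS group, and vitamin replicate 2 stands apart from replicates 1 and 3 for Rgs3, Rgs18 and Rgs19.

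Against the RANKL group, 1 of the 8 relatives was higher with the vitamins (Rgs12) and 1 was lower (Rgs10), at an adjusted p under 0.05 over all 17002 genes in edgeR's quasi-likelihood test, and 3 had an unadjusted p under 0.05, as did 44.7% of all genes. Of all genes tested, 16.4% were higher and 17.2% lower in this comparison, so neither count of relatives stood above that background. In limma on log2(FPKM + 0.1) the split over all genes was 2184 higher and 3953 lower, in place of 2796 and 2929. Rgs16 is counted among the 8 as not called, but it passed the filter on low counts through the RANKL libraries. Leaving it aside, the median log2 fold change of 7 relatives was -0.39, with 6 of 7 below 0, and that of all genes was -0.04. Against the PBS group, Rgs12 was higher and 2 relatives, Rgs10 and Rgs2, were lower, where 19.8% of all genes were higher and 21% lower. The vitamin libraries enter both comparisons. Between RANKL and PBS no relative was called by edgeR (0 higher and 0 lower, with 1 at an unadjusted p under 0.05), where 2.35% of all genes were higher and 1.26% lower, and 18.6% had an unadjusted p under 0.05. DESeq2 called 1 relative, Rgs10, lower there, as did edgeR with the replicate number as a block (1 lower, adjusted p = 0.0491), where the numbers were taken to pair these libraries. Of all genes, DESeq2 called 3.86% lower there, and the block 1.69% lower and 3.16% higher.

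**Figure D2:**
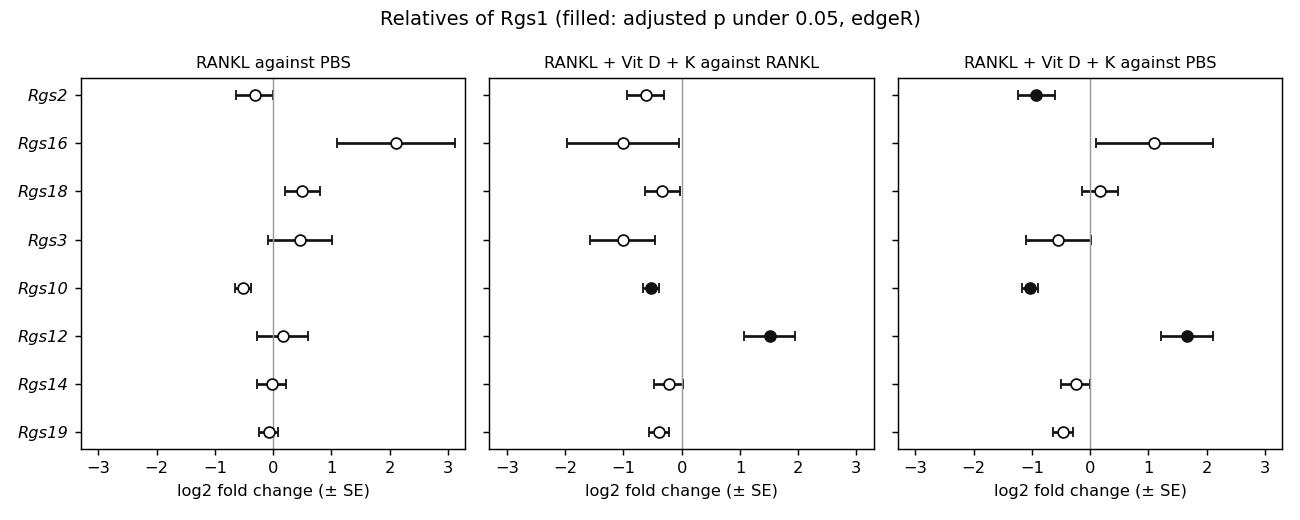
Log2 fold changes of the 8 relatives of Rgs1 in the 3 comparisons, 1 panel each, from edgeR's model of all 9 libraries. Points are fitted values, whiskers are ± SE, and filled points have an adjusted p under 0.05. Rgs12 is filled above 0 and Rgs10 below 0 in both panels with vitamins, and no point is filled for RANKL against PBS. Rgs16 passed the filter on low counts through the RANKL libraries, so no result is drawn from its open points.

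Rgs12 was the relative that rose. It is a large protein that carries, beside the RGS domain, other protein-binding domains and a GoLoco motif that holds Gi alpha in its GDP form, and it has been studied as a factor in osteoclast formation. Its counts were 105, 379 and 127 with PBS, 186, 320 and 246 with RANKL, and 514, 687 and 717 with the vitamins. Every vitamin library exceeded every other library, and the PBS and RANKL groups overlapped. The level was 0.318 ± 0.235 FPKM (SD, n = 3) with PBS, 0.387 ± 0.106 with RANKL and 0.994 ± 0.169 with the vitamins. The log2 fold change was 1.51 against RANKL (SE 0.444, adjusted p = 0.0286, edgeR) and 1.67 against PBS (SE 0.446, adjusted p = 0.0162), which is 2.84-fold and 3.18-fold. The call against RANKL was lost without RANKL replicate 1 (adjusted p = 0.101), RANKL replicate 3 (0.0815), vitamin replicate 1 (0.0521) or vitamin replicate 3 (0.0910), and with no filter on low counts (0.0526). That against PBS was lost without PBS replicate 3 (adjusted p = 0.0554), and the value against PBS lay between 1.41 and 2.49 with a library left out. Between RANKL and PBS the value was 0.16 (SE 0.438, adjusted p = 0.897). It was 0.99 without PBS replicate 2 (adjusted p = 0.131) and -0.09 without PBS replicate 1 (adjusted p = 0.965). Without PBS replicate 3 or RANKL replicate 2 it was also just below 0.

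Rgs10, the most abundant of the 9 genes without vitamins, fell with them. It is a small protein of little more than an RGS domain that acts on Gi alpha, is abundant in macrophages and microglia, and has also been studied in osteoclast formation. Its counts were 9313, 9433 and 9429 with PBS, 7622, 6053 and 8162 with RANKL, and 4318, 4687 and 4664 with the vitamins. No 2 groups overlapped. Its level was 73.7 ± 0.286 FPKM (SD, n = 3) with PBS, 56.1 ± 7.60 with RANKL and 35.3 ± 1.42 with the vitamins. The log2 fold change of the vitamins against RANKL was -0.53 (SE 0.139, adjusted p = 0.0188), and against PBS it was -1.04 (SE 0.14, adjusted p = 0.000806), a 2.05-fold lower level. The difference from PBS was called in all 16 alternative analyses. The call against RANKL was lost without RANKL replicate 1 (adjusted p = 0.0739) or RANKL replicate 3 (0.0736), and in a fit of only these 2 groups (0.0507). Between RANKL and PBS the value was -0.51 (SE 0.138, adjusted p = 0.081), and it passed with the replicate number as a block (adjusted p = 0.0491), by DESeq2 (0.0198) and without vitamin replicate 2 (0.0336). The macrophage marker Csf1r, the receptor for M-CSF, was also lower with the vitamins, with an FPKM of 627.1, 411.8 and 594.2 with RANKL and 136.4, 221.0 and 192.2 with the vitamins, while Cd68 had 548.5, 574.5 and 534.1 against 788.9, 683.4 and 681.3. The part of such markers in the level of Rgs10 was not tested. In bulk RNA, fewer cells that express a gene and less RNA per cell cannot be told apart.

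Rgs2, of the same cluster on chromosome 1 as Rgs1, was lower in the vitamin group than in PBS. Its protein prefers Gq alpha, the subunit that activates phospholipase C beta. Its counts were 6868, 7876 and 7334 with PBS, 7040, 4554 and 7962 with RANKL, and 5152, 2482 and 3632 with the vitamins. The vitamin libraries lay below all PBS libraries but overlapped the RANKL group, whose replicate 2 was low. Its level was 27.2 ± 1.60 FPKM (SD, n = 3) with PBS, 23.7 ± 6.05 with RANKL and 13.8 ± 5.07 with the vitamins. Against PBS the log2 fold change was -0.93 (SE 0.318, adjusted p = 0.0433), a call made in 7 of 16 alternatives and lost with any PBS library left out (adjusted p from 0.0888 to 0.101), without RANKL replicate 1 (0.0613) or 3 (0.0525), and without vitamin replicate 2 (0.0584) or 3 (0.113). Against RANKL it was -0.61 (SE 0.317, adjusted p = 0.166), -0.98 without vitamin replicate 1 (adjusted p = 0.0387) and -0.33 without vitamin replicate 2 (adjusted p = 0.302). Between RANKL and PBS it was -0.31 (SE 0.316, adjusted p = 0.664), -0.09 without RANKL replicate 2 (adjusted p = 0.962) and -0.48 without RANKL replicate 3 (adjusted p = 0.555).

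The remaining R4 genes are Rgs18 and Rgs3, which did not pass in any comparison of the main fit, and Rgs16. Rgs18, best known from megakaryocytes and platelets, had an FPKM of 5.37, 9.62 and 5.92 with PBS, 9.85, 13.5 and 8.96 with RANKL, and 4.89, 12.1 and 6.57 with the vitamins. Replicate 2 was the highest in every group, and the groups overlapped, while within same-numbered pairs the RANKL library was above the PBS library in 3 of 3. Pf4, a platelet and megakaryocyte marker that macrophages can also express, was likewise highest in replicate 2 of each group, with an FPKM of 29.7, 12.4 and 18.4 there in the PBS, RANKL and vitamin groups. The summed FPKM of 5 such markers was 6.62 to 33.2 with PBS, 3.56 to 14.7 with RANKL and 10.6 to 18.8 with the vitamins. Pf4 made up most of that sum in every library. Itga2b was lower in every vitamin library (0.0737 to 0.0827) than in the RANKL libraries (0.098 to 0.329). Ppbp overlapped between these groups, at 0.0168 to 1.995 with RANKL and 0.117 to 0.211 with the vitamins. Gp9 and Gp1bb were at most 0.0617 there. The part of these markers in the values of Rgs18 was not tested. The log2 fold change of Rgs18 was 0.50 for RANKL against PBS (adjusted p = 0.434, and 0.105 with the replicate number as a block) and 0.84 without PBS replicate 2 (adjusted p = 0.239). It was -0.33 for the vitamins against RANKL (adjusted p = 0.429) and 0.17 for the vitamins against PBS (adjusted p = 0.689). Against RANKL it was -0.12 without vitamin replicate 1 (adjusted p = 0.811), -0.69 without vitamin replicate 2 (adjusted p = 0.0581) and -0.18 without RANKL replicate 2 (adjusted p = 0.716), and against PBS it was -0.19 without vitamin replicate 2 (adjusted p = 0.573).

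Rgs3, which also acts on Gi and Gq alpha, had counts of 739, 622 and 556 with PBS, 945, 1083 and 910 with RANKL, and 149, 1048 and 208 with the vitamins. Vitamin replicates 1 and 3 were below every other library, and replicate 2 was within the RANKL range. Its log2 fold change against RANKL was -1.01 (SE 0.557, adjusted p = 0.193), -2.22 without vitamin replicate 2 (adjusted p = 6.66e-05) and -0.61 without vitamin replicate 1 (adjusted p = 0.416). Against PBS it was -0.54 (adjusted p = 0.463), and -1.76 without replicate 2 (adjusted p = 0.000196), -0.09 without vitamin replicate 1 (adjusted p = 0.912), -0.16 without vitamin replicate 3 (adjusted p = 0.865) and -0.35 without PBS replicate 1 (adjusted p = 0.720). The RANKL libraries lay above all PBS libraries, with a log2 fold change of 0.46 (SE 0.552, adjusted p = 0.723).

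Rgs16, a gene often induced in activated leukocytes, was near the detection limit. Its counts were 10, 4 and 0 with PBS, 25, 18 and 25 with RANKL, and 8, 15 and 8 with the vitamins. The RANKL libraries exceeded all others, and Rgs16 passed the filter on low counts through them. In the counts over 8 relatives it stands as not called, and no result is drawn from that. Given that filter, its fitted differences are a description, without p-values. They were 2.11 (log2) for RANKL against PBS, -1.01 for the vitamins against RANKL and 1.10 for the vitamins against PBS. With a library left out the first of these lay between 1.59 (without PBS replicate 3) and 3.36 (without PBS replicate 1), and the last between 0.58 and 2.36 without the same libraries.

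Rgs14 and Rgs19 spread more widely among the vitamin libraries than among the others. Rgs14 combines an RGS domain with Ras-binding domains and a GoLoco motif, and Rgs19 (also called GAIP) acts on Gi alpha and binds the scaffold protein GIPC. The FPKM of Rgs14 was 7.49, 7.13 and 6.04 with PBS, 7.64, 7.44 and 7.09 with RANKL, and 3.32, 8.86 and 5.36 with the vitamins. That of Rgs19 was 29.4, 28.7 and 27.2 with PBS, 29.6, 31.9 and 26.7 with RANKL, and 15.9, 29.3 and 16.6 with the vitamins. In both genes vitamin replicates 1 and 3 lay below all other libraries, while replicate 2 was the highest library of all for Rgs14 and within the RANKL range for Rgs19. Against RANKL, the log2 fold change was -0.22 for Rgs14 (SE 0.249, adjusted p = 0.52) and -0.39 for Rgs19 (SE 0.17, adjusted p = 0.108). Without vitamin replicate 2 these were -0.56 (adjusted p = 0.0335) and -0.63 (adjusted p = 0.000348). Against PBS, Rgs19 had a value of -0.47 (SE 0.17, adjusted p = 0.0532) and Rgs14 one of -0.25 (adjusted p = 0.458). Between RANKL and PBS the values were -0.08 for Rgs19 (adjusted p = 0.867) and -0.02 for Rgs14 (adjusted p = 0.975). Without vitamin replicate 2, both passed against PBS, Rgs14 at -0.58 (adjusted p = 0.0268) and Rgs19 at -0.71 (adjusted p = 0.000182), while Rgs19 was at -0.30 there without vitamin replicate 1 (adjusted p = 0.237) or vitamin replicate 3 (adjusted p = 0.256).

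The relatives differed in how the vitamin libraries spread. Set against the mean log2 CPM (counts scaled to library size) of the RANKL libraries, Rgs12 was 1.33, 1.47 and 1.75 higher in vitamin replicates 1, 2 and 3, and Rgs10 differed by -0.47, -0.64 and -0.42. These were the relatives whose 3 vitamin libraries differed least from each other. Rgs3, Rgs14, Rgs18 and Rgs19 were below the RANKL mean in replicates 1 and 3 and above it in replicate 2, where they differed by 0.09, 0.27, 0.20 and 0.006. Rgs2 differed by -0.03, -1.37 and -0.60, so that replicate 2 was the lowest, and Rgs16, at its low counts, by -1.06, -0.53 and -1.11. Rgs1 itself was 8.04, 5.23 and 7.34 higher, again with replicate 2 nearest to the RANKL group. Without this library, 4 relatives were lower than with RANKL (Rgs3, Rgs10, Rgs14 and Rgs19) and Rgs12 was higher (adjusted p = 0.0299), where 26.5% of all genes were lower and 22.2% higher. What sets that library apart was not tested.

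**Figure D3:**
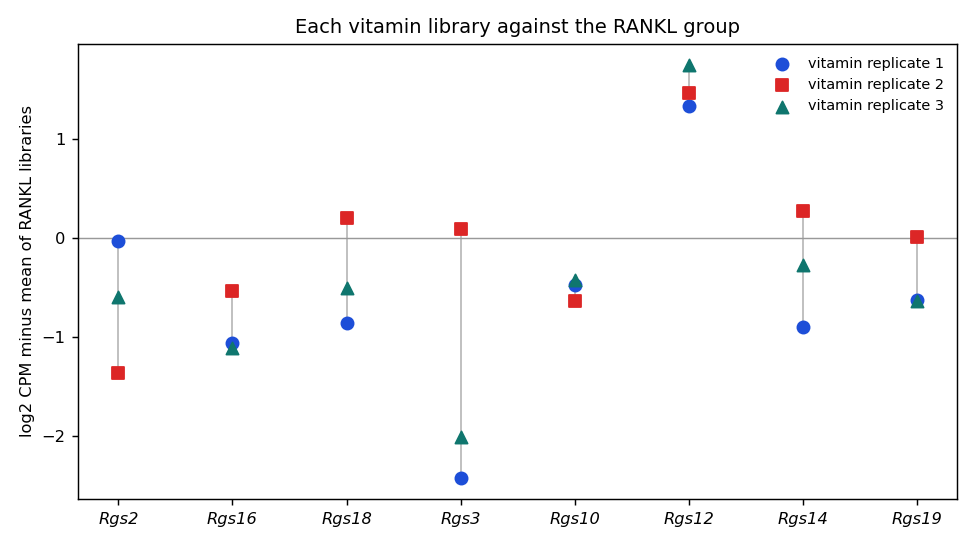
Difference of each RANKL + Vit D + K library from the mean of the 3 RANKL libraries, in log2 CPM, for the 8 relatives of Rgs1. Circles, squares and triangles are vitamin replicates 1, 2 and 3. The 3 libraries lie close together for Rgs10 and Rgs12, and replicate 2 lies above the others for Rgs3, Rgs14, Rgs16, Rgs18 and Rgs19 and below them for Rgs2.

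In summed level of the 9 genes the vitamin libraries spanned those of the other groups, with another make-up. It was 145 ± 4.45 FPKM (SD, n = 3) with PBS, 129.5 ± 8.62 with RANKL and 152 ± 36.6 in the vitamin group, whose libraries ranged from 115.8 to 188.9. Rgs1 made up 0.527% of that sum with PBS, 0.406% with RANKL and 40.7 ± 22.0% in the vitamin group, with 58.7%, 16.1% and 47.2% in replicates 1, 2 and 3. Without Rgs1, the sum was 144 ± 4.23 FPKM with PBS, 129 ± 8.75 with RANKL and 85.0 ± 10.5 with the vitamins. No test was made on these sums, since Rgs1 was chosen from the vitamin libraries.

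**Figure D4:**
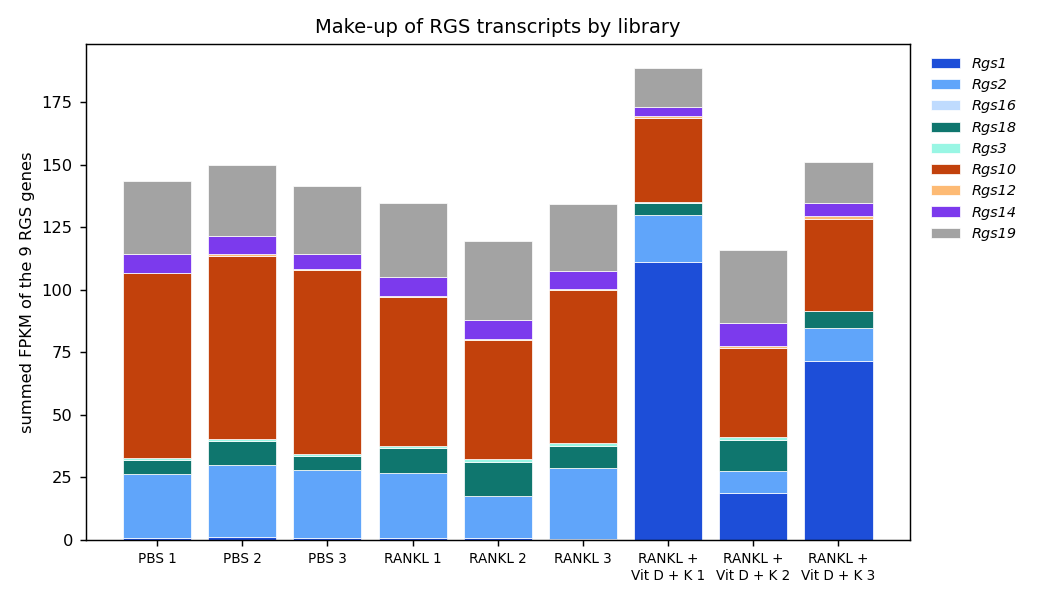
Summed FPKM of the 9 RGS genes in each of the 9 libraries, as bars stacked by gene. Rgs10 is the largest block in the PBS and RANKL libraries, and Rgs1 is the largest in vitamin replicates 1 and 3 but not in replicate 2.

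In order of mean FPKM, Rgs10 led in the PBS and RANKL groups, followed by Rgs19 and Rgs2, whose ranges overlapped, then by Rgs18 and Rgs14. Rgs18 and Rgs14 overlapped with PBS, and in the RANKL group every Rgs18 library was above every Rgs14 library. Rgs3, Rgs1, Rgs12 and Rgs16 closed the order in both groups. Rgs3 was separated from Rgs1 in the RANKL group only, and Rgs1 from Rgs12 in the PBS group only. With the vitamins, Rgs1 had the highest mean, but its range took in that of Rgs10, so the first place between them was not settled. Rgs19, Rgs2, Rgs18 and Rgs14 followed, each overlapping the next, and then Rgs12 and Rgs3, which also overlapped, and Rgs16.

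By the mean absolute difference between centred log2 CPM profiles over the 9 libraries, the 5 genes most like Rgs1 were Plk2 (0.422), Gdf15 (0.465), Trib3 (0.607), Soat2 (0.687) and Gem (0.701). Plk2, a kinase of the polo-like family, had an FPKM of 297.3, 52.7 and 215.3 in vitamin replicates 1, 2 and 3. Gdf15, a secreted protein of the TGF-beta superfamily, had 415.8, 86.8 and 332.8. Trib3, a pseudokinase, had 122.8, 87.4 and 113.7, Soat2, which esterifies cholesterol, had 10.1, 6.61 and 7.96, and Gem, a small GTPase, had 5.83, 0.552 and 3.66. Replicate 2 was the lowest vitamin library in each of the 5, as in Rgs1, which the choice by profile over these same libraries favours. Of the relatives, Rgs12 had the profile nearest to that of Rgs1, at 2.14 and rank 632 of the genes tested, and the others ranked between 8773 (Rgs16) and 14010 (Rgs3).

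A further 10 Rgs genes in the table were not among the 9, and 3 of them, Rgs5, Rgs9 and Rgs11, passed the filter on low counts. In each of the 3 comparisons, 0 of them were called by edgeR, 0 by DESeq2 and 0 had an unadjusted p under 0.05. Rgs11, an R7 subfamily member, was the highest of them, with 1.29 and 1.03 FPKM on average in the PBS and RANKL groups and 0.871, 2.48 and 1.28 in vitamin replicates 1, 2 and 3. Its log2 fold change against RANKL was 0.67 (adjusted p = 0.118, and 0.370 without vitamin replicate 2, its highest library). The summed FPKM of the 10 genes was 1.34 ± 0.177 (SD, n = 3) with PBS, 1.15 ± 0.157 with RANKL and 1.71 ± 0.957 with the vitamins, all far below that of the 9 genes.

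Of 9 tested G alpha genes, 3 were higher than with RANKL and 3 lower, with a median log2 fold change of -0.36. The higher ones were Gna13 (log2 fold change 1.49, adjusted p = 0.00858), Gna15, of the Gq class and largely restricted to blood cells (0.77, adjusted p = 0.0052), and Gnai3 (0.74, adjusted p = 0.00556). The lower ones were Gna12 (-0.56, adjusted p = 0.00939), Gnai2, the main Gi alpha subunit of leukocytes (-0.45, adjusted p = 0.0326), and Gnaq (-0.38, adjusted p = 0.0466). Gnai2 had an FPKM of 210.7, 214.4 and 196.7 with RANKL and 112.8, 182.4 and 121.0 with the vitamins, and Gnai3 had 39.7, 46.3 and 40.5 against 69.3, 54.7 and 64.9. The 2 groups did not overlap for either gene, and both Gi alpha subunits are substrates of most of the RGS proteins described. Of 16 alternatives, the call of Gnai2 was made in 8, that of Gnaq in 6, and those of the other 4 in all.

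Among 13 tested G beta and gamma genes, 1 was higher with the vitamins (Gng5, log2 fold change 0.67, adjusted p = 0.00327) and 3 were lower, with a median of 0.01 over the list. The lower ones were Gnb4 (-2.04, adjusted p = 0.0169), Gnb5 (-1.51, adjusted p = 0.000942) and Gng7 (-1.24, adjusted p = 0.00631). Gnb5 is the partner that the R7 subfamily, which includes Rgs11, needs for its stability. Its FPKM was 1.97, 2.22 and 2.05 with RANKL and 0.526, 0.784 and 0.68 with the vitamins. Of 7 other regulators and partners of G alpha, 2 were lower, Gpsm3 (-0.87, adjusted p = 0.0064) and Ric8b, a chaperone of G alpha subunits (-0.37, adjusted p = 0.0462, called in 6 of 16 alternatives). The median was -0.14, and 0 were higher by edgeR, with 1 at an unadjusted p under 0.05 (21.1% of all genes) and 1 by DESeq2 (19% of all genes, with 21.6% lower).

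The kinases and arrestins, which switch off the receptor itself where RGS proteins switch off the G protein, had 4 of 7 genes lower with the vitamins (median -0.66). By edgeR 0 were higher, with 0 at an unadjusted p under 0.05 and 0 by DESeq2. Arrb1 (beta-arrestin 1) had an FPKM of 42.3, 39.9 and 41.9 with RANKL and 9.77, 25.2 and 12.7 under the vitamins (log2 fold change -1.28, adjusted p = 0.00569). Grk3, the receptor kinase that RANKL raised over PBS (2.67, adjusted p = 0.00022), was lower with the vitamins added (-1.60, adjusted p = 0.000581), and Arrb2 was also lower (-0.66, adjusted p = 0.0146). Of 11 tested adenylyl cyclases and phospholipases C beta, 4 were lower, among them Adcy3 (-2.60, adjusted p = 0.000394) and Adcy7, the most abundant of them in these cells (-0.95, adjusted p = 0.00422), and 1 was higher, Adcy2 (2.89, adjusted p = 0.0267, called in 9 of 16 alternatives), with a median of -0.47. Adcy6 was among the lower ones, with an FPKM between 0.0347 and 0.0413 in the RANKL libraries and listed at 0 in the vitamin libraries. It could pass the filter on low counts only through groups in which it is higher, so that it could differ in this direction only, and 3 of the other 10 were lower. For each of these lists the share of all genes called, 16.4% higher and 17.2% lower, is the background, and the lists were not tested as sets.

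The chemoattractant and related Gi-coupled receptors, whose signals Rgs1 and other R4 proteins restrain, had 7 of 14 genes lower with the vitamins than with RANKL and 2 higher, with a median log2 fold change of -1.61, where 17.2% of all genes were lower and 16.4% higher. Fpr1, a receptor for formyl peptides, had an FPKM of 13.8, 6.49 and 10.4 with RANKL and 0.0376, 0.222 and 0 under the vitamins (log2 fold change -6.72). It passed the filter on low counts through the PBS and RANKL libraries, in which it is higher. Its call as lower, counted among the 7, is therefore not independent of that filter. Ccr2, the receptor for the chemokine CCL2, had 26.7, 11.0 and 19.5 against 0.125, 0.735 and 0.14 (-5.76, adjusted p = 0.000881), and the related Fpr2 was also lower (-4.51). The higher ones were Ptafr, the receptor for platelet-activating factor (0.75, adjusted p = 0.0216), and Cxcr4, the receptor for CXCL12 (2.27, adjusted p = 0.0178). Cxcr4 had an FPKM of 318.0, 55.0 and 283.4 with the vitamins and 52.6, 33.5 and 68.7 in the RANKL group, so that its replicate 2 lay within the RANKL range, and its call was made in 12 of 16 alternatives and that of Ptafr in 11. Between RANKL and PBS, edgeR called 0 of these 14 receptors higher and 0 lower, with 1 higher and 5 lower at an unadjusted p under 0.05, and DESeq2 called 1 higher and 4 lower. Over all genes the corresponding shares were 9.96% higher and 8.65% lower at an unadjusted p under 0.05, and 6.18% and 3.86% by DESeq2. Without vitamin replicate 2, 9 of the 14 were lower with the vitamins than with RANKL and 2 higher, where 26.5% of all genes were lower and 22.2% higher. In the other lists the counts without it were 3 higher and 4 lower for G alpha, 2 and 4 for G beta and gamma, 0 and 5 for the kinases and arrestins, 0 and 3 for the other regulators, and 1 and 5 for the cyclases and phospholipases.

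**Figure D5:**
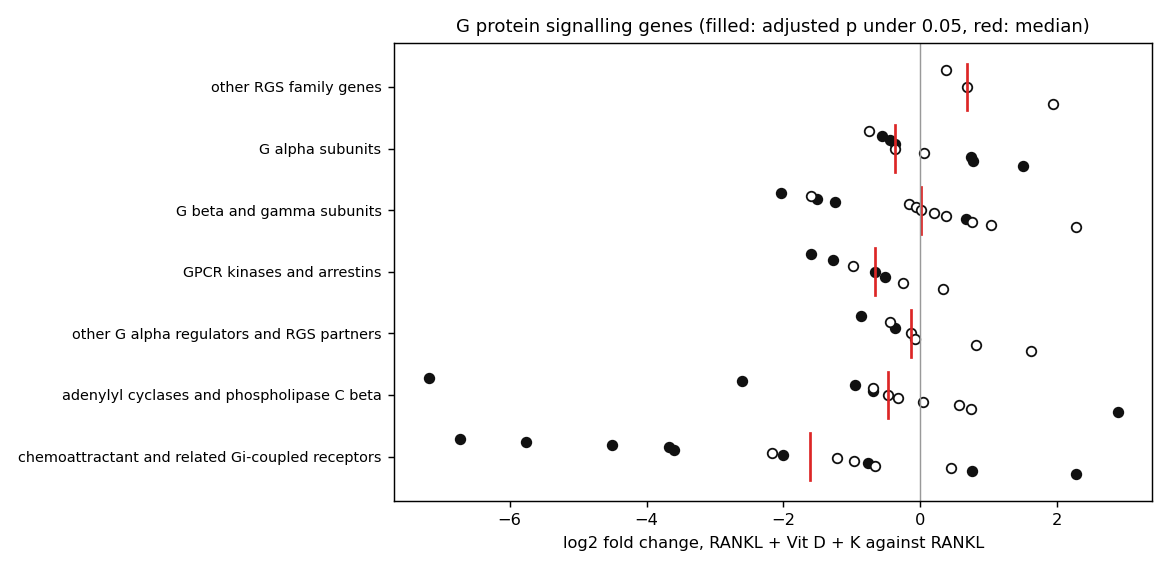
Log2 fold changes of the RANKL + Vit D + K group against the RANKL group for the tested genes of 7 lists, 1 row per list. Points are genes, filled where the adjusted p was under 0.05, and red lines are list medians. The chemoattractant receptors have the lowest median of these lists, and the 3 other Rgs genes are not filled.

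RGS genes are also expressed by other blood cells, so markers of these were read beside them. The B cell marker Cd79b had an FPKM of 0.326 to 0.795 in the PBS and RANKL libraries and of 0, 0.0248 and 0 with the vitamins. Of 5 T cell markers, only 2 were found in the deposited table. Lck had 0.116, 0.06 and 0.0714 with RANKL and 0.221, 0.432 and 0.234 with the vitamins, and Cd2 had 0.355, 0.0862 and 0.347 against 0, 0.0552 and 0.136. Their sum was 0.146 to 0.471 with RANKL and 0.221 to 0.487 with the vitamins. The 2 NK cell markers found summed to 0.0567 to 0.106 with RANKL and 0.0165 to 0.0943 with the vitamins. For the 2 mast cell and basophil markers found, the sums were 0.0278 to 0.071 and 0.00941 to 0.327. The highest of these was mostly Kit, at 0.304 in vitamin replicate 1. The part of lymphocytes and mast cells in the level of Rgs1 was not tested. Neutrophil markers had a summed FPKM of 9.27 to 95.3 with PBS, 9.32 to 110.3 with RANKL and 0.493 to 1.5 with the vitamins. Of these, 5 of 7 were lower with the vitamins than with RANKL, as were 17.2% of all genes. In every vitamin library 5 of the 7 were listed at 0, so these could pass the filter on low counts only through the other groups. Their sum was highest in replicate 2 of each group. Fpr1 was lowest in replicate 2 with PBS, with an FPKM of 47.7, 24.8 and 51.4, and with RANKL, but highest there with the vitamins. Rgs2 was lowest there with RANKL and with the vitamins but highest with PBS. The part of such cells in the levels of Rgs2, Rgs18 and Fpr1 was not tested.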

How the data were processed

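RNA-seq libraries of BMDMs in 3 groups of 3 were grouped and numbered from their labels. The authors deposited 1 table with a whole-number count of reads per gene and library, not normalized, and FPKM values, which the authors scaled for transcript length and library size. The submitters' processing notes name cutadapt 1.9, HISAT2 2.0.4, StringTie 1.3.4d and edgeR. They name the build hg38, yet the table holds mouse gene IDs, of which 28294 of 28379 were found in GENCODE M21 (GRCm38), so the coordinates were read as GRCm38. Poly(A) RNA was sequenced as paired ends. Whether counting used strand was not given in the sources used here. A count of 4 occurred 2.22 times as often as counts of 3 and 5 did on average, so counts may not be independent reads.

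In R 4.3.3 with edgeR 4.0.16, genes were filtered by filterByExpr, normalized by TMM and tested by quasi-likelihood in a model that took in all 9 libraries. The p-values were adjusted by Benjamini-Hochberg over 17002 genes, with a threshold of 0.05. The SE was the size of the log2 fold change divided by the square root of F. All 9 RGS genes passed the filter. No 2 libraries of a group were alike within sampling noise (chi-square per degree of freedom at least 23.2). Alternatives were median-of-ratios size factors, no filter (genes with at least 1 count), DESeq2 1.42.0, limma 3.58.1 on log2(FPKM + 0.1) and log2(FPKM + 1), a replicate block, only the 2 groups compared, and each library left out.

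Deviations from the group means of same-numbered PBS and RANKL libraries correlated across genes at 0.122, 0.219 and 0.155, all over 0.1, so the numbers were taken to pair these 2 groups; the labels do not state what a number marks. The members and the gene lists were chosen with earlier results of these data known. Named beside the members were genes of the lists that passed the test against RANKL, up to 3 in each direction by size or where a member's result turned on them, and the 5 genes most like Rgs1.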

Additional observations from a re-analysis of the deposited data

How the results depend on the processing

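Of 24 results for the 8 relatives, each in 16 alternatives, 5 were called and 1 of these, Rgs10 with the vitamins against PBS, was called in every alternative, while 11 were never called and 8 were called in some alternatives. Rgs16, which passed the filter through the RANKL libraries, is among the 11 in each comparison. For RANKL against PBS, 1 relative was lower by DESeq2 and 1 with the replicate block, in place of 0, and 0 to 1 with a library left out. For the vitamins against RANKL, 0 were higher with no filter on low counts and 0 to 1 with a library left out, in place of 1. There 2 were lower by limma with either pseudocount, 0 with only the 2 groups compared and 0 to 4 with a library left out, in place of 1. For the vitamins against PBS, 0 to 1 were higher with a library left out, and 1 was lower with no filter, 1 with only the 2 groups and 1 to 4 with a library left out, in place of 2. Values near 0 changed sign. For RANKL against PBS, Rgs14 moved to 0.0365 with no filter, 0.105 and 0.0932 by limma with pseudocounts of 0.1 and 1, 0.0312 with only the 2 groups, and -0.0621 to 0.0991 with a library left out. Rgs19 moved there to 0.045 and 0.0438 by limma and -0.10 to 0.00262 with a library left out, and Rgs12 to between -0.0862 and 0.99. With a library left out, Rgs14 lay between -0.56 and 0.0271 for the vitamins against RANKL and between -0.58 and 0.0583 against PBS, and Rgs18 between -0.19 and 0.50 against PBS. The causes were not tested.

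Over all genes, limma on log2(FPKM + 0.1) moved the median log2 fold change of the vitamins against RANKL from -0.04 to -0.16, with 2184 genes higher and 3953 lower. With only the 2 groups, 1921 and 1870 were called in that comparison, and with a library left out 1596 to 3767 and 1675 to 4506, or 2522 to 4133 and 2350 to 4735 against PBS. For RANKL against PBS, 605 genes were higher and 207 lower by limma on log2(FPKM + 0.1), 1050 were higher and 656 lower by DESeq2, 1014 and 680 with only the 2 groups, 304 and 122 with no filter, and 96 to 1004 and 30 to 963 with a library left out. For the vitamins against RANKL, same-numbered libraries correlated at 0.00625, 0.0428 and 0.107, so the numbers were not taken as pairs. The replicate block left the counts of relatives called there and against PBS at 1 higher and 1 lower and at 1 higher and 3 lower, the added one being Rgs19 (-0.49, adjusted p = 0.0429). The counts of Rgs16 were at most 25, the lowest of the 9 genes.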
